A study of Mus musculus with 12 samples.

Results

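The genes described here are 9 that set how much glucose the liver makes, stores and breaks down: Pck1, Pcx, Fbp1, G6pc, Slc2a2, Pklr, Gys2, Pygl and Ppargc1a. They were taken by gene symbol from a table of 16970 genes, and all 9 have a row in it. Their levels are followed across 12 mouse liver libraries in 4 groups of 3, whose titles read BDL, BDL_H, MDR and MDR_H. All 4 groups are livers of mouse models of cholestasis, in which the formation or the flow of bile is impaired. BDL livers come from mice with the bile duct ligated; the series description gives 7 days of ligation, stated with the treated mice and taken to hold for BDL too. BDL_H is taken as the group that was also given the bile acid HDCA (hyodeoxycholic acid), at a dose of 100 mg/kg for 4 days, starting after a wait of 3 days from surgery. MDR is taken as the Abcb4-/- mouse, since the series description names no other second model and the older name of mouse Abcb4 is Mdr2. Abcb4-/- mice lack the canalicular transporter of phosphatidylcholine. MDR_H is taken as Abcb4-/- mice given HDCA at 100 mg/kg for 21 days from 60 days of age. The sources used here do not give strain, sex, feeding state or vehicle. They also do not say whether replicates are separate animals, so the spread behind each p-value is that of these libraries and may be technical. Livers without cholestasis were not analysed here, so no level is set against a healthy liver.

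Gluconeogenesis is the making of glucose from lactate, glycerol and amino acids. In the fasted liver, glucagon and glucocorticoids raise it through the genes of its committed steps, and insulin lowers it. Pcx (pyruvate carboxylase), Pck1 (cytosolic phosphoenolpyruvate carboxykinase), Fbp1 (fructose bisphosphatase) and G6pc (the catalytic subunit of glucose-6-phosphatase) catalyse these steps in that order, and Slc2a2 (GLUT2) is the membrane carrier through which glucose enters or leaves the hepatocyte. Pklr (liver pyruvate kinase) runs the last step of glycolysis, in the opposite direction. Gys2 builds liver glycogen and Pygl breaks it down. Ppargc1a encodes a coactivator that works with Foxo1 and Hnf4a on the gluconeogenic genes. Bile acids act on this set through the receptor Nr1h4 and the repressor Nr0b2.

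The promoters of 3 genes are shown because each carries a known control sequence. Under the main settings, only Pklr of these 3 passed a test below. The windows run from 250 bases before the start site to 50 after it, in the direction of transcription, from RefSeq on GRCm38.p6. RefSeq windows were matched by symbol for 8 of the 9 genes; Gys2 had none. Capitals mark matches on either strand to one of 4 motifs. TGACG is the core of the cyclic AMP response element. The insulin response element of the FOXO type was searched as CAAAACA. The carbohydrate response element is a palindrome and is given by its name alone. The last motif, TATAAA, marks a basal promoter and is called the basal motif here.
Pck1, chr2:173152823-173153122, plus strand: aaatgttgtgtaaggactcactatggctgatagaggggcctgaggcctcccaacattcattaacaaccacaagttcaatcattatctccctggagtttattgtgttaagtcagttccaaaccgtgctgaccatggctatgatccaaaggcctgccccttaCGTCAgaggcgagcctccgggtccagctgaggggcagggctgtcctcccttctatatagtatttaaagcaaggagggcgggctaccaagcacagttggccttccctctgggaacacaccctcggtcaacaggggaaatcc
G6pc, chr11:101367466-101367765, plus strand: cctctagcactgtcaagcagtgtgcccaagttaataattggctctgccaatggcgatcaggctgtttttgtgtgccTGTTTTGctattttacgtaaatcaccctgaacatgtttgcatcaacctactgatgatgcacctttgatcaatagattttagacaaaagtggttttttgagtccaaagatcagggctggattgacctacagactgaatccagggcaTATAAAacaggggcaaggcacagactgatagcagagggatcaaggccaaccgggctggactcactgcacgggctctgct
Pklr, chr3:89136373-89136672, plus strand: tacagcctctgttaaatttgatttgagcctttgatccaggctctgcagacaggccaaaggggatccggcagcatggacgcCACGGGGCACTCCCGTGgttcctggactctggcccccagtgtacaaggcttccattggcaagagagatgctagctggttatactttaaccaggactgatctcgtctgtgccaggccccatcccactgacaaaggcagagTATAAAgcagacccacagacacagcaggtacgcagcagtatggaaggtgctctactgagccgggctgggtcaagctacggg
In Pck1 the core TGACG was read on the opposite strand 90 bases upstream of the start site, and 20.8% of the 32851 mouse promoter windows of the same length hold that core. In G6pc the FOXO-type element was read on the opposite strand 174 bases upstream, with the basal motif 29 bases upstream, and 6.28% and 13.6% of windows hold them. In Pklr the carbohydrate element starts 170 bases upstream and the basal motif 31. The element in that exact spelling was found in 1 of the 32851 windows (0.00304%), this one. Other spellings of the element were not searched, so this share does not show how common the element is. This window belongs to the second of 2 RefSeq start sites of Pklr, and the first holds none of the motifs. Among the other genes, Pygl and Ppargc1a hold the core TGACG 44 and 49 bases upstream. A match describes letters and is not a measured binding site.

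The levels below are FPKM, the authors' fragment counts scaled by gene model length and library depth, so genes can be compared by level. Whole reads recovered from them sum to 34260782 to 40427855 per library, and each of the genes other than Ppargc1a holds at least 1317 recovered reads in every library. In all, 2 libraries stand apart in the table as a whole: the median log2(FPKM + 1) of the tested genes is 2.49 in BDL replicate 1 and 2.56 in BDL_H replicate 2, against 2.81 to 2.88 in the other 4 libraries of that model and 2.88 to 3.06 in MDR and MDR_H. The titles carry no independent check from the targeted gene. Abcb4 (chromosome 5, 8893717 to 8959231) read 52.8, 152 and 168 FPKM in BDL, 160, 72.1 and 178 in BDL_H, 181, 150 and 162 in MDR and 165, 154 and 129 in MDR_H, and a gene-level value does not show whether a transcribed allele is disrupted. Every direction given for MDR and MDR_H rests on the titles and the series description. In bulk liver, fewer cells of a type and less RNA per cell cannot be told apart.

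Pck1 was the highest of the 9 genes in 9 of the 12 libraries, and Fbp1 was the highest in the other 3, which are all MDR or MDR_H. Ppargc1a was the lowest in 12 of 12. In BDL the mean FPKM ran in the order Pck1, Fbp1, Pcx, Pygl, Slc2a2, G6pc, Pklr, Gys2, Ppargc1a. The ranges of Pcx, Pygl, Slc2a2 and G6pc overlap from each to the next there, as do those of Pklr and Gys2. In MDR the order began with Fbp1 and Pck1, whose ranges overlap, and went on with Pygl, G6pc, Slc2a2 and Pcx, which also overlap from each to the next.

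**Figure D1:**
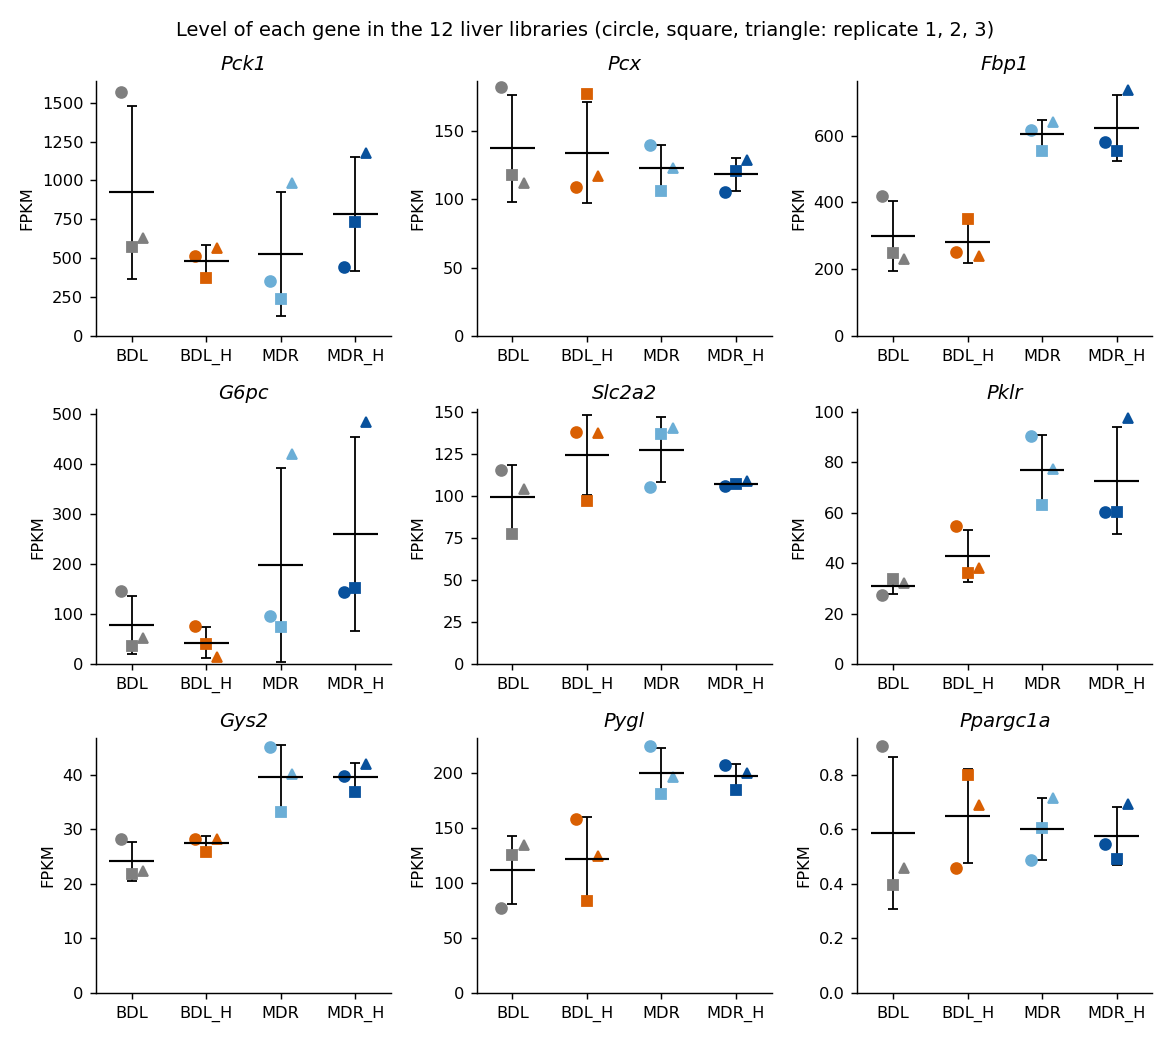
FPKM of the 9 genes in each library of the 4 groups, on linear axes from 0. Points are libraries, the long bar is the group mean and the thin bar is ± SD (n = 3). Fbp1, Pklr, Gys2 and Pygl lie higher in every MDR library than in every BDL library, while Pck1 and G6pc spread widely within groups.

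The first comparison asks what HDCA does to these genes in the ligated liver. Pck1 (chromosome 2, 173153048 to 173159273), the gene of the step often taken as the control point of gluconeogenesis, read 1567, 571 and 631 FPKM in BDL and 513, 373 and 564 in BDL_H. The 3 treated libraries lie below the 3 untreated ones, the nearest of them only just (564 against 571), and BDL replicate 1 is far above the others. The means were 923 ± 559 and 484 ± 98.9 (SD, n = 3), and the difference on the log2(FPKM + 1) scale was -0.79 ± 0.53 (SE; 95% interval -1.96 to 0.37; limma adjusted p = 1.00). Without BDL replicate 1 the difference was -0.33, and without both libraries that stand apart it was -0.16.

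G6pc (chromosome 11, 101367561 to 101377903), which releases free glucose from its phosphate, read 146, 37.5 and 53.5 FPKM in BDL and 76.0, 40.6 and 14.4 in BDL_H. The groups overlap, with BDL replicate 1 highest and BDL_H replicate 3 lowest. The log2 difference was -0.88 ± 0.78 (SE; limma adjusted p = 1.00), and it was -0.32 without BDL replicate 1 and -0.26 without BDL_H replicate 3. Library weights estimated by limma turned the sign, to 0.24.

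Pklr (chromosome 3, 89136142 to 89146784) read 27.5, 33.7 and 32.0 FPKM in BDL and 54.9, 36.0 and 38.3 in BDL_H. Every treated library lies above every untreated one, and BDL_H replicate 1 is the highest. The log2 difference was 0.44 ± 0.22 (SE; 95% interval -0.04 to 0.92; limma adjusted p = 1.00), and it was 0.25 without BDL_H replicate 1. Pck1 and Pklr are thus the 2 of 8 tested genes whose BDL and BDL_H values do not overlap, 1 in each direction, beside 5.03% of all tested genes.

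For the other tested genes the log2 differences with HDCA in BDL were -0.06 ± 0.23 for Fbp1, -0.03 ± 0.22 for Pcx, 0.32 ± 0.18 for Slc2a2, 0.19 ± 0.14 for Gys2 and 0.11 ± 0.24 for Pygl (SE), all with a limma adjusted p of 1.00. None of the 8 passed the test. The background was 0.0% of 10805 tested genes called, with 243 genes at an unadjusted p under 0.05. Over the 8 genes the median log2 difference was 0.04, beside 0.03 over all genes tested. The summed FPKM of 8 stellate cell and fibroblast markers was 62.1 to 125.7 in BDL and 126.0 to 208 in BDL_H, and that of 8 endothelial markers was 33.5 to 151 and 131 to 157. BDL replicate 1 held the lowest BDL value of both sums. The other BDL libraries read 98.0 and 126 for the first list and 105 and 151 for the second. All 8 markers of each list had a log2 difference above 0, as had the 4 tested neutrophil and the 5 tested erythroid markers. None of these markers passed the test, and their part in the values above was not tested.

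The second comparison asks the same in the MDR model. Pck1 read 356, 241 and 984 FPKM in MDR and 444, 736 and 1174 in MDR_H. G6pc read 96.1, 75.7 and 421 in MDR and 145, 153 and 484 in MDR_H. Both genes are highest in replicate 3 of both groups, and the groups overlap. Within libraries of the same number, which the values of the whole table show to deviate together, Pck1 was higher with HDCA in 3 of 3, by 0.32, 1.61 and 0.25 on the log2 scale. G6pc was likewise higher in 3 of 3, by 0.59, 1.01 and 0.20. None of the other genes was higher in all 3 pairs. The share of all tested genes higher in 3 of 3 was not computed, and the pairing was itself taken from these data. These counts are therefore a description only. The group differences were 0.73 ± 0.53 (SE) for Pck1 and 0.60 ± 0.78 for G6pc, each with a limma adjusted p of 1.00. Leaving out 1 library moved Pck1 from 0.29 (without MDR replicate 2) to 1.31 (without MDR replicate 3), and G6pc from 0.03 (without MDR_H replicate 3) to 1.36 (without MDR replicate 3).

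Slc2a2 (chromosome 3, 28697903 to 28731359) read 105, 137 and 141 FPKM in MDR and 106, 107 and 109 in MDR_H. The treated libraries lie close together at the level of the lowest untreated library, and the groups overlap. The log2 difference was -0.24 ± 0.18 (SE; limma adjusted p = 1.00). Pklr differed by -0.10 ± 0.22 and the remaining 4 genes by -0.05 to 0.04. None of the 8 genes passed the test and none had groups that did not overlap, beside 0.0% called and 5.95% that did not overlap among all tested genes, of which 61 had an unadjusted p under 0.05.

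Pck1 and G6pc thus read lower on average with HDCA in BDL and higher on average in MDR. The test of that difference between the models gave 1.52 ± 0.75 (SE; 95% interval -0.13 to 3.17) for Pck1 and 1.48 ± 1.10 for G6pc, with limma adjusted p = 1.00 for both. Without BDL replicate 1, Pck1 gave 1.06 and G6pc 0.92. With library weights Pck1 gave 0.55 and G6pc turned to -0.27. Slc2a2 gave -0.56 ± 0.26 and Pklr -0.54 ± 0.31, also with an adjusted p of 1.00. No gene of the 10805 passed this test (0.0%), and 200 had an unadjusted p under 0.05. The interval for Pck1 is wide, so this p does not show that HDCA acted alike in both models.

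The ratio of G6pc to Pck1 within a library, which a constant factor per library does not change, was 0.0931, 0.0656 and 0.0848 in BDL and 0.148, 0.109 and 0.0255 in BDL_H. It was 0.27, 0.314 and 0.427 in MDR and 0.326, 0.208 and 0.413 in MDR_H. The 6 libraries of one model do not overlap with the 6 of the other, and the treated and untreated groups overlap within each model. This ratio was chosen after its values were seen and is given as a description, without a test.

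**Figure D2:**
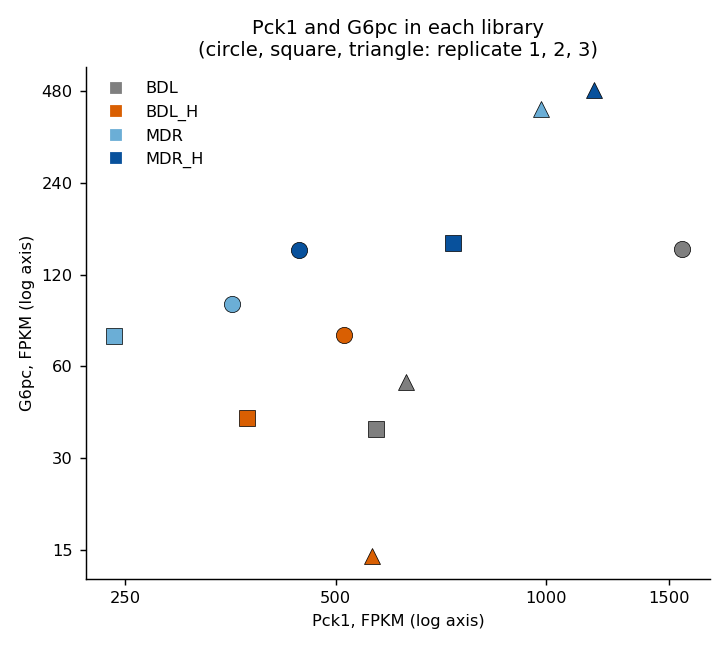
FPKM of Pck1 (x axis) against FPKM of G6pc (y axis) in the 12 libraries, both on log axes. MDR and MDR_H replicate 3 hold the highest G6pc (421 and 484), BDL replicate 1 the highest Pck1 (1567). The ratio of G6pc to Pck1 is at most 0.148 in BDL and BDL_H and at least 0.208 in MDR and MDR_H.

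The third comparison sets the untreated models against each other, MDR against BDL. It is a comparison of different mice: genotype and surgery differ together and cannot be told apart, and the sources used here do not set the ages of the groups side by side. Here 4 of the 8 tested genes were higher in MDR and none was lower. They are the glycolytic gene Pklr, the gluconeogenic gene Fbp1 and both genes of glycogen turnover, Gys2 and Pygl. Among all tested genes 15.1% were called higher and 1.07% lower, and the median log2 difference was 0.25 over all and 0.78 over the 8.

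Pklr had the largest estimate of these 4. It read 90.6, 62.9 and 77.4 FPKM in MDR against 27.5, 33.7 and 32.0 in BDL, so that the lowest MDR library is above the highest BDL library. The means were 77.0 ± 13.8 and 31.1 ± 3.21 (SD, n = 3), a 2.48-fold difference, with a log2 difference of 1.27 ± 0.22 (SE; limma adjusted p = 0.00539). It passed the test in 22 of 22 alternative settings, with differences of 0.91 to 1.41. Exons of Hcn3, on the other strand, overlap Pklr, and the sources used here do not say whether strand was used in counting. Hcn3 held at most 12 recovered reads in any library, against at least 3159 for Pklr.

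Fbp1 (chromosome 13, 62864753 to 62888282) read 616, 555 and 640 FPKM in MDR and 420, 249 and 230 in BDL. All MDR libraries lie above all BDL libraries, and BDL replicate 1 is the nearest to them. The means were 604 ± 44.0 and 300 ± 105 (SD, n = 3), a 2.01-fold difference, with a log2 difference of 1.06 ± 0.23 (SE; limma adjusted p = 0.0135). The call was lost by a small margin without BDL replicate 2 (adjusted p = 0.0503) or MDR replicate 3 (0.0519).

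Gys2 (chromosome 6, 142422613 to 142473109), liver glycogen synthase, read 45.1, 33.2 and 40.1 FPKM in MDR and 28.1, 21.8 and 22.3 in BDL. The log2 difference was 0.69 ± 0.14 (SE; limma adjusted p = 0.0094), a 1.64-fold difference of means. Pygl (chromosome 12, 70190811 to 70231488), liver glycogen phosphorylase, read 224, 180 and 196 in MDR and 76.8, 125 and 134 in BDL. Its log2 difference was 0.87 ± 0.24 (SE; limma adjusted p = 0.0354), and the call was lost without BDL replicate 1, BDL replicate 2, any 1 of the 3 MDR libraries, or MDR_H replicate 2 or 3 (adjusted p from 0.0513 to 0.0974). On FPKM as deposited, the synthetic and the degrading enzyme of glycogen were thus both higher in MDR, and for both genes the groups do not overlap. The Gys2 call held in 18 of 22 alternative settings. It was lost with the compared groups alone (limma adjusted p = 0.0504) and under quantile normalization (0.0936). It was also lost with limma-voom on recovered reads (0.245) and under median-of-ratios scaling (0.340). The Pygl call was also lost with the replicate block (adjusted p = 0.0594) and with the compared groups alone (0.0625), and it held in 10 of 22 alternative settings. In all, 4 of the 8 genes were higher without overlap, where 39.2% of all tested genes were.

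The other gluconeogenic genes did not pass the test. Pcx (chromosome 19, 4510472 to 4621752) read 140, 106 and 123 FPKM in MDR and 183, 118 and 112 in BDL, a log2 difference of -0.14 (limma adjusted p = 0.672). Pck1 differed by -0.91 ± 0.53 (SE; adjusted p = 0.238), by -0.45 without BDL replicate 1 and by -1.49 without MDR replicate 3. G6pc differed by 1.12 ± 0.78 (SE; adjusted p = 0.317), by 1.68 without BDL replicate 1 and by 0.35 without MDR replicate 3. With library weights it differed by 2.48 and passed (adjusted p = 0.0101). Slc2a2 differed by 0.37 ± 0.18 (SE; adjusted p = 0.179), and it passed in 2 of 22 alternative settings, with library weights (0.68; adjusted p = 0.000743) and without both libraries that stand apart (0.49; 0.0468). Without BDL replicate 1 the Pcx estimate turned to 0.0847, so its sign rests on that library.

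**Figure D3:**
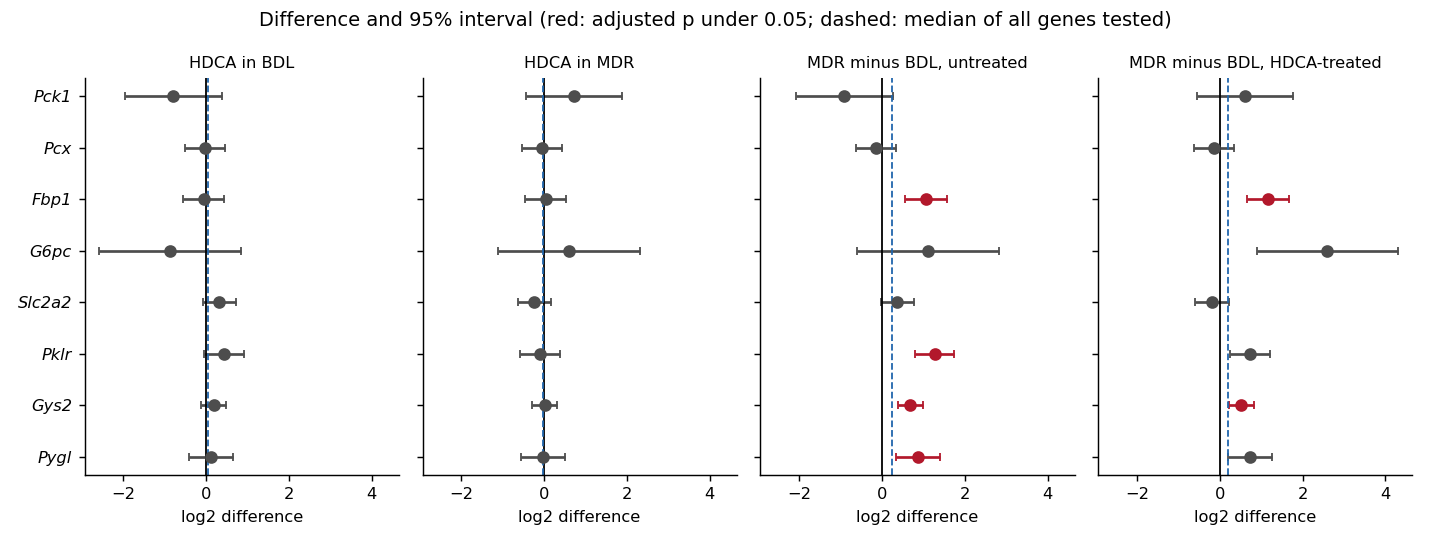
Log2 difference of the 8 tested genes in 4 comparisons, with 95% intervals from limma. Red points passed the test and the dashed line is the median of all tested genes. Fbp1 and Gys2 are red in both model comparisons, and no gene is red with HDCA.

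The same model difference was read in the treated groups, MDR_H against BDL_H, which share no library with the untreated ones, though all comparisons share 1 estimate of the spread. Fbp1 read 580, 553 and 736 FPKM in MDR_H and 251, 350 and 240 in BDL_H, a 2.22-fold difference of means with a log2 difference of 1.16 ± 0.23 (SE; limma adjusted p = 0.0179). Gys2 read 39.8, 36.9 and 41.9 against 28.1, 25.8 and 28.2, with a log2 difference of 0.51 ± 0.14 (SE; limma adjusted p = 0.0448). These 2 of 8 genes were called higher and 0 lower, beside 7.36% and 0.935% of all tested genes. The Fbp1 call was lost without BDL_H replicate 1 (adjusted p = 0.0508) or MDR_H replicate 3 (0.0641), and Gys2 was called in 8 of 22 alternative settings.

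G6pc had the largest estimate of the 8 in this comparison. It read 145, 153 and 484 FPKM in MDR_H and 76.0, 40.6 and 14.4 in BDL_H, so the groups do not overlap. The means differed 5.97-fold and the log2 difference was 2.60 ± 0.78 (SE; limma adjusted p = 0.0629). It stayed between 1.97 and 3.13 when any 1 library was left out, and it passed the test only without BDL replicate 1 (adjusted p = 0.0403) and with library weights (0.0461). Pklr read 60.5, 60.4 and 97.4 against 54.9, 36.0 and 38.3, a log2 difference of 0.73 ± 0.22 (SE; adjusted p = 0.0618). Pygl read 207, 184 and 199 against 158, 83.2 and 125, a log2 difference of 0.73 ± 0.24 (SE; adjusted p = 0.0817). In all, 5 of the 8 genes were higher without overlap in MDR_H, where 32.4% of all tested genes were. Pck1 differed by 0.61 ± 0.53 (SE; adjusted p = 0.475), Slc2a2 by -0.19 and Pcx by -0.15.

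These model differences depend on how libraries are scaled to each other. FPKM divides by all fragments, and the median tested gene lies 0.25 higher in MDR than in BDL and 0.20 higher in MDR_H than in BDL_H. Median-of-ratios scaling moved these medians to -0.05 and -0.03. Under it Pklr stayed called in the untreated models (0.91; limma adjusted p = 0.0316), while Fbp1 (0.69; adjusted p = 0.218), Gys2 (0.33; 0.340) and Pygl (0.50; 0.0998) did not pass, and 0 of 8 passed in the treated models. Slc2a2 lay at -0.0009 under it in the untreated models. Quantile normalization kept Pklr and Fbp1 among the called genes in the untreated models and Fbp1 in the treated ones. The split of all calls moved as well, from 93.4% higher to 56.8% under median-of-ratios scaling and 58.2% under quantile normalization in the untreated models, and from 88.7% to 47.2% and 52.9% in the treated ones. The estimates of Pklr, Fbp1, Gys2 and Pygl were above 0 under each scaling in both comparisons.

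**Figure D4:**
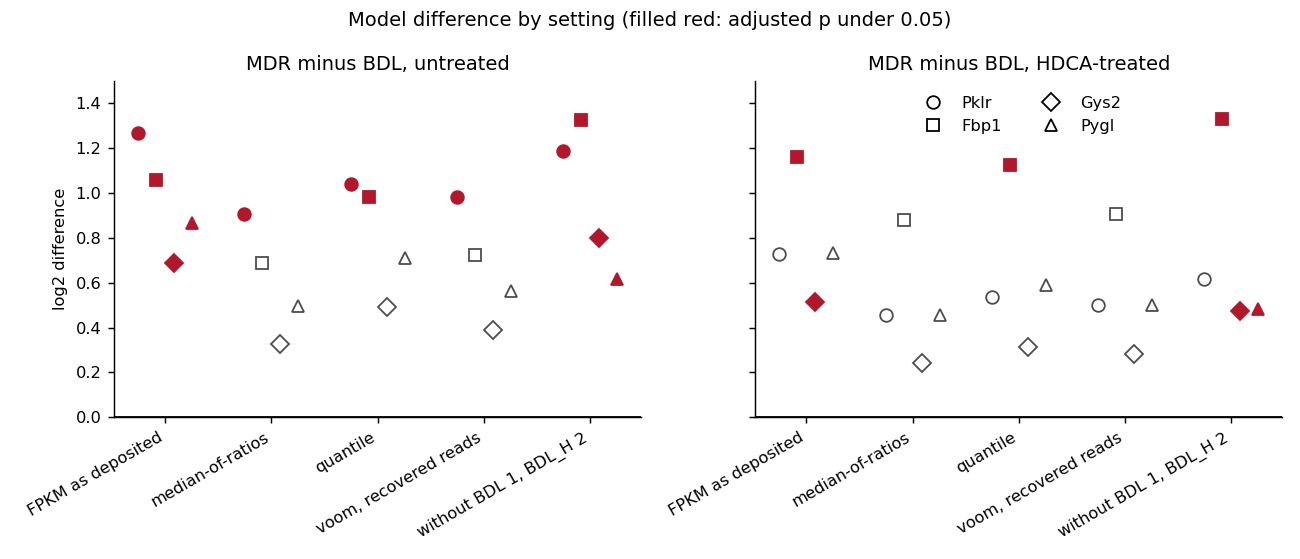
Log2 difference between the models (y axis) for Pklr, Fbp1, Gys2 and Pygl under 5 settings (x axis), untreated on the left and HDCA-treated on the right. Filled red points passed the test; Pklr is filled in each untreated setting shown, and all points lie above 0.

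Cell markers moved with the models in most lists. The summed FPKM of stellate cell and fibroblast markers was 62.1 to 126 in BDL and 238 to 466 in MDR, with 6 of 8 markers called higher and none at 0 in all libraries. Endothelial markers summed to 33.5 to 151 and 172 to 219 (4 of 8 called), lymphocyte markers to 0.91 to 3.15 and 7.32 to 10.5 (3 of 4 tested called), and erythroid markers to 91.9 to 256 and 364 to 478 (3 of 5 tested called). Cholangiocyte markers summed to 119 to 414 in BDL and 336 to 519 in MDR, with 4 of 7 tested called higher. The 7 hepatocyte markers with a row summed to 47732 to 50021 in BDL and 32627 to 39306 in MDR, so hepatocyte markers are far above the other lists in every library. That sum is carried by Alb and Apoa1: 1 of the 7 markers, Apoa1, was called lower, none higher, and 3 of 7 had a log2 difference above 0. Macrophage and Kupffer cell markers had 1 of 8 called higher, and neutrophil markers 0 of 4 tested. In the treated models 5 of 8 stellate cell and fibroblast markers, 2 of 7 cholangiocyte, 1 of 8 macrophage and 1 of 4 lymphocyte markers were called higher, 0 of 8 endothelial and 0 of 5 erythroid ones, and 1 of 4 neutrophil markers was called lower. The part of cell makeup in these differences was not tested.

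Ppargc1a (chromosome 5, 51454250 to 51567726) was below 1 FPKM in all 12 libraries and was therefore outside the test. It read 0.906, 0.397 and 0.457 in BDL, 0.460, 0.800 and 0.689 in BDL_H, 0.487, 0.605 and 0.714 in MDR and 0.545, 0.491 and 0.695 in MDR_H. All 4 groups overlap, and these levels rest on 253 to 565 recovered reads per library. Fitted with no filter, its log2(FPKM + 1) differences were 0.07 ± 0.12 (SE) with HDCA in BDL, -0.02 ± 0.12 with HDCA in MDR and 0.03 ± 0.12 between the untreated models, with limma adjusted p-values of 1.00, 1.00 and 0.928. On that scale the change of so low a gene is understated.

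The wider pathway was read from 5 lists with 113 other genes, of which 107 were tested. With HDCA none passed in either model. Between the untreated models 21 were higher and 1 lower in MDR, and between the treated models 8 were higher and none lower in MDR_H. The median log2 difference was 0.24 over these genes and 0.25 over all in the untreated models, so the lists as a whole sit at the background. Under median-of-ratios scaling the counts were 5 higher and 6 lower untreated, and 2 and 3 treated. Without BDL replicate 1 and BDL_H replicate 2 they were 30 and 5, and 15 and 8. Leaving out 1 library gave 7 (without MDR replicate 2) to 25 (without BDL_H replicate 2) higher untreated, and 1 (without MDR_H replicate 2) to 16 (without BDL replicate 1) treated. The counts by list are read against the 15.1% and 7.36% of all tested genes called higher in the untreated and treated models.

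The list named glycolysis, the pathway that Pklr ends, held 11 of the 21, out of 28 tested. It also holds genes that act after the Pklr step, such as those of lactate dehydrogenase and the pyruvate dehydrogenase complex. The list median was 0.39, and 15.1% of all tested genes were called higher. Without MDR replicate 2 the count was 4. Among the 11 were Gapdh (log2 difference 0.71), Eno1 (0.76, limma adjusted p = 0.00276) and the phosphofructokinase gene Pfkp (1.00). The lactate dehydrogenase subunit Ldhb (1.15) was also called, along with Pdha1 (0.59) and Pdhb (0.47) of the pyruvate dehydrogenase complex. Ldhb, Pdha1 and Pdhb act after the Pklr step. In the treated models Eno1 (0.49), Ldhb (1.08) and Pdha1 (0.48) were called, and of these only Eno1 acts before the Pklr step. Under median-of-ratios scaling 2 of the 28 were called higher and 1 lower in the untreated models.

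Glycogen metabolism beyond Gys2 and Pygl held 2 genes called higher of 16 tested in both comparisons. Among all tested genes 15.1% were called higher untreated and 7.36% treated. Under median-of-ratios scaling 2 of the 16 were called higher and 2 lower in the untreated models, and 1 and 2 in the treated ones. Ugp2, which makes the UDP-glucose that Gys2 uses, differed by 1.01 untreated (limma adjusted p = 0.0157) and 0.99 treated (0.029). Ppp1r3c, which targets protein phosphatase to glycogen, read 34.5, 27.6 and 31.6 FPKM in MDR and 11.3, 8.71 and 11.7 in BDL. It differed by 1.48 (adjusted p = 0.00314), and by 1.25 in the treated models (0.0121).

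Of the 17 tested genes of gluconeogenesis outside the 9, the dehydrogenase Mdh1 (0.50) and the mitochondrial carrier Slc25a11 (0.40) were called higher in MDR. That share of the 17 is no larger than that of all tested genes. None was called higher, and 1 lower, under median-of-ratios scaling, and none was called higher without BDL replicate 2 or any 1 of the MDR libraries. Mpc2, a subunit of the mitochondrial pyruvate carrier, was called in the treated models (0.71). Tat, a glucocorticoid-responsive gene of amino acid breakdown, differed by -1.19 ± 0.45 (SE; limma adjusted p = 0.0879) untreated.

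Among 32 genes of hormonal and transcriptional control, Cebpa (0.90), Txnip (1.49) and Ppara (0.66) were higher and Cebpb (-1.22; limma adjusted p = 0.0279) lower in MDR. The share called higher is below that of all tested genes, and under median-of-ratios scaling and under voom it was 0 of 32, with 2 lower. Cebpa (0.68) and Ppara (0.74) were called in the treated models as well. Txnip (1.185, limma adjusted p = 0.0766) and Cebpb (-0.225, 0.673) were not. Cebpb read 63.3, 52.4 and 129 FPKM in MDR and 232, 188 and 127 in BDL, so the groups overlap. No gene of this list was called lower untreated without BDL replicate 1 or 2, without MDR replicate 1 or 2, or with the replicate block. Mlxipl, which encodes ChREBP, the factor of the carbohydrate response element printed in the Pklr window, differed by 0.70 ± 0.26 (SE; adjusted p = 0.0878) untreated and 0.90 ± 0.26 (0.0568) treated. Nr0b2, the bile acid-responsive repressor, differed by -1.19 ± 0.44 (SE, limma adjusted p = 0.0852) untreated. With HDCA it differed by -0.81 ± 0.44 in BDL and -0.60 ± 0.44 in MDR (SE, limma adjusted p = 1.00). It read 31.8, 33.1 and 52.1 FPKM in BDL and 33.9, 7.92 and 34.1 in BDL_H. The groups overlap, and the low value is BDL_H replicate 2, which stands apart. It read 21.0, 14.1 and 14.2 in MDR and 12.4, 9.77 and 8.96 in MDR_H, without overlap, beside 5.95% of all tested genes. Of 14 genes of fructose, polyol and pentose phosphate metabolism, Khk (0.90), Tkfc (0.86) and Rpia (0.71) were called higher in the untreated models and none in the treated ones.

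**Figure D5:**
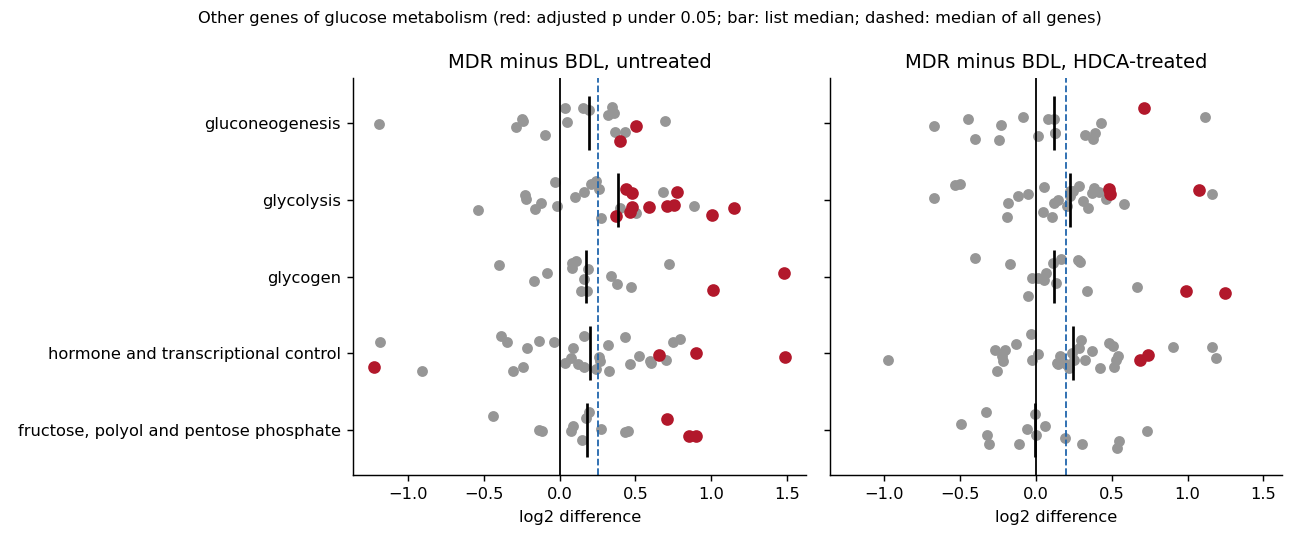
Log2 difference between the models for each tested gene of the 5 pathway lists (rows), untreated on the left and HDCA-treated on the right, with called genes in red, list medians as bars and the median of all genes dashed. The glycolysis list, which includes genes acting after the Pklr step, holds 11 called genes in the untreated models. Cebpb at -1.22 is the called gene below 0.

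How the genes vary together was described over the 12 libraries by Pearson's r of log2(FPKM + 1), without a test, since the libraries share groups. Fbp1 and Gys2 had r = 0.90, Pklr and Gys2 0.895, Pklr and Pygl 0.88, and Fbp1 and G6pc 0.80. Pck1 followed none of these (r = -0.23 to 0.11 with Fbp1, Pklr, Gys2 and Pygl) and had r = 0.51 with G6pc. Pcx ran opposite to Pygl (r = -0.66), and BDL replicate 1 and BDL_H replicate 2 hold its highest values, 183 and 177 FPKM, and the lowest of Pygl, 76.8 and 83.2. Of all other tested genes, the one most like Pck1 was Klf15 (r = 0.89), most like G6pc Zbed5 (0.93), most like Pklr Nsd3 (0.95) and most like Pcx Gde1 (0.94). For Fbp1, Gys2 and Pygl it was Hadha (0.98), Eci1 (0.98) and Crot (0.98).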

How the data were processed

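Per the labels' protocols, liver RNA was extracted with TRIzol and made into polyA libraries (VAHTS Universal V6 kit). Tools named in the submitters' processing notes are HISAT2 2.0.5 and featureCounts 1.5.0-p3, with fastp, CASAVA 1.8 and DESeq2 1.20.0, on GRCm38. The sources used here do not give the annotation release or the use of strand. The authors deposited 1 table of FPKM values for 16970 genes. FPKM is not a count. Whole reads were recovered from its steps in 99.988% of genes, within 0.02 of a read in all 12 libraries, and gave the depths. Chi-square per gene was at least 31.6 for each pair of libraries, so all 12 were kept as separate.

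limma 3.58.1 in R 4.3.3 was fitted with trend to log2(FPKM + 1), a scale that understates the change of low genes, over the means of the 4 groups with 8 residual degrees of freedom. Genes with FPKM of at least 1 in at least 3 libraries were tested, 10805 in all. Two-sided p-values took a Benjamini-Hochberg adjustment over all genes tested, and an adjusted p under 0.05 was called. The script was tested on simulated data. The groups come from the sample titles.

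Same-numbered libraries of MDR and MDR_H deviated together (correlations 0.438, 0.312 and 0.548), so the numbers were taken to pair them, from the values alone. BDL replicate 1 and BDL_H replicate 2, of different numbers, also reach 0.548. Numbers did not pair BDL with BDL_H (-0.43, -0.382 and 0.431).

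The 9 genes, the 5 pathway lists and the 8 marker lists were chosen with earlier results of these data known. Named beside the 9 genes are up to 4 genes of each pathway list with the smallest p in a comparison, the gene most correlated with each of the 9 (predicted genes passed over), and Abcb4. A few genes named by it are not reported here. Igfbp1, Tat, Sds, Pdk4, Hcn3 and the further called genes of the lists were named after their values were seen. Coordinates are from GENCODE M21 on GRCm38 and promoters from RefSeq. Other scalings, filters, pseudocounts and sets of libraries were tried as alternatives.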

Additional observations from a re-analysis of the deposited data

How the results depend on the processing

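With HDCA, counts of called genes stayed at 0 in all alternatives except library weights, which called 1 gene in BDL (limma stopped estimating the weights before its tolerance was reached). The replicate block changed no HDCA call. Genes called between the untreated and treated models were 1746 and 896. They were 1111 and 325 with the replicate block, 4947 and 2750 with library weights, 992 and 534 with limma-voom on recovered reads (chosen after seeing the data), and 616 and 436 at a mean FPKM of at least 5. They were 729 and 542 with the compared groups alone, 1126 (untreated) under median-of-ratios scaling, 941 (untreated) under quantile normalization, and 2228 and 1274 without both BDL replicate 1 and BDL_H replicate 2. Leaving out 1 library gave 477 (without MDR replicate 2) to 2346 (without BDL_H replicate 2) and 171 (without MDR_H replicate 2) to 1548 (without BDL replicate 1). Of the 8 genes, 4 and 2 were called: 1 and 0 under median-of-ratios scaling and voom, 2 and 1 under quantile normalization and with the compared groups alone, 3 and 1 with the replicate block, 6 and 4 with library weights, 5 and 3 without both libraries that stand apart, and 2 to 4 and 0 to 5 when 1 library was left out. The untreated models gave 2 without BDL replicate 2 or MDR replicate 3, and the treated models 5 without BDL replicate 1 and 0 without BDL_H replicate 1 or MDR_H replicate 3.

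Signs turned mostly where the log2 difference was near 0. Under median-of-ratios scaling these were Pygl with HDCA in MDR (0.0227), the difference of HDCA effects of Pcx (0.0759) and Slc2a2 untreated (-0.000901), and under voom Pygl (0.0163) and Pcx (0.0549) in the same comparisons. With library weights they were, with HDCA in BDL, Fbp1 (0.0165) and G6pc (0.236); with HDCA in MDR, Fbp1 (-0.00095), G6pc (-0.0319) and Gys2 (-0.00975); for the difference of effects, Pcx (0.0568), Fbp1 (-0.0175) and G6pc (-0.268); and between models Pck1 untreated (0.0785) and Pcx (0.0422 untreated, 0.0991 treated). Without both libraries that stand apart they were Fbp1 with HDCA in BDL (0.0358) and Pcx between models (0.0847 untreated, 0.062 treated). Leaving out 1 library, the ranges that cross 0 were, with HDCA in BDL, Pcx -0.25 to 0.19, Fbp1 -0.23 to 0.21 and Pygl -0.13 to 0.36; with HDCA in MDR, Pcx -0.15 to 0.0477, Fbp1 -0.0892 to 0.12, Pklr -0.33 to 0.0224, Gys2 -0.11 to 0.11 and Pygl -0.0913 to 0.0653. For the difference of effects they were Pcx -0.24 to 0.20, Fbp1 -0.17 to 0.27 and Pygl -0.38 to 0.11, and between models Pcx -0.26 to 0.0847 untreated and -0.28 to 0.062 treated. The causes were not tested. The planned edgeR test was not run, since the deposited unit is FPKM, and voom took its place. Depth limits Ppargc1a, at 253 to 565 reads, more than the other 8 genes.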

Other observations

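Igfbp1, a hepatic gene repressed by insulin and carried by the list of hormonal control, was picked after its values were seen because it spread like Pck1 and G6pc. It read 404, 212 and 132 FPKM in BDL, 204, 93.6 and 107 in BDL_H, 67.1, 87.2 and 288 in MDR and 62.5, 197 and 478 in MDR_H. As with Pck1, the highest BDL library is replicate 1 and the highest MDR and MDR_H libraries are replicate 3. Its log2 difference with HDCA was -0.81 ± 0.72 (SE) in BDL and 0.60 ± 0.72 in MDR, each with a limma adjusted p of 1.00. Sds (serine dehydratase), a fasting-induced gene of amino acid breakdown also picked after its values were seen, read 241, 42.1 and 32.1 in BDL and 32.7, 150 and 46.0 in BDL_H. It was thus highest in BDL replicate 1 and BDL_H replicate 2, the libraries that stand apart from their groups. In MDR it read 48.7, 51.1 and 79.5, and in MDR_H 64.0, 43.4 and 107. Tat read 1102, 536 and 463 in BDL and 442, 854 and 348 in BDL_H, again highest in those 2 libraries, and 244, 203 and 464 in MDR and 292, 225 and 493 in MDR_H. Not all such genes shared this pattern. Igfbp1 was lowest in BDL_H replicate 2. Pdk4, of the glycolysis list, read 4.03, 3.63 and 5.11 in BDL and 7.12, 2.84 and 3.88 in BDL_H, also lowest in BDL_H replicate 2. When the animals were fed or killed is not given in the sources used here, and no cause of these patterns was tested.

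The ratio of Pygl to Pcx within a library, also chosen after its values were seen, was 1.59 to 1.7 in MDR. It was 0.421 in BDL replicate 1 and 0.47 in BDL_H replicate 2, against 1.06 to 1.45 in the other 4 libraries of the BDL model.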
